A study of Mus musculus with 12 samples.

Results

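Mitochondrial fatty acid oxidation was described through a set of 31 genes, the enzymes and carriers that bring fatty acids into mitochondria and oxidise them, together with 1 enzyme of ketone body metabolism. The set was chosen by gene name, from what the proteins do, and not by a measured value of the comparison. Earlier results of these data were known when it was chosen. A probe set is a group of probes on the array that reads 1 transcript, and where a gene had several, the brightest on average was used. Of the 31 genes, 30 were measured among the 18193 genes of the arrays. The exception is Cpt1b, which is read only by a probe set that the platform's table also gives to Gm44502 and Chkb. The tissue was brown adipose tissue, the fat that makes heat, from male mice with the leptin-deficient ob/ob genotype, aged 3 months and kept on normal chow. In the anti-FGFR1 group, 6 mice had received 1 mg/kg of an agonistic antibody to the receptor FGFR1 in 1 injection into the abdominal cavity, 4 days before the tissue was taken. In the control IgG group, 6 mice of the same genotype had received a control IgG and were pair-fed, so that their food intake followed that of the treated mice. All 12 mice lack leptin, lean or freely fed animals were not analysed here, and each array holds the RNA of 1 mouse and of every cell type in the dissected tissue.

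Long-chain fatty acids cross the mitochondrial membranes as carnitine esters: a carnitine palmitoyltransferase of the outer membrane (Cpt1) makes the ester, a carrier exchanges it for free carnitine, and Cpt2 on the inner membrane makes the acyl-CoA again. In the matrix, each turn of beta-oxidation runs through an acyl-CoA dehydrogenase, a hydratase, a 3-hydroxyacyl-CoA dehydrogenase and a thiolase, and releases acetyl-CoA. The electrons taken by the acyl-CoA dehydrogenases pass through the electron transfer flavoprotein to ubiquinone. In brown fat this pathway is known as the main source of fuel for heat made by the uncoupling protein Ucp1.

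Promoter sequences (250 bases before to 50 bases after the annotated start) were taken from RefSeq on the mouse assembly GRCm38.p6, which holds 26 of the 31 genes; Cpt1b, Crat, Acad9, Acaa2 and Decr1 were not matched. Cpt2 and Echdc1 are shown because they are the genes of the set that passed the test below, with the first 50 transcribed bases in capitals; Echdc1 has 2 annotated starts. The Cpt2 window is chr4:107923540-107923839 on the minus strand, and the Echdc1 windows are chr10:29312916-29313215 and chr10:29313250-29313549 on the plus strand.
Cpt2: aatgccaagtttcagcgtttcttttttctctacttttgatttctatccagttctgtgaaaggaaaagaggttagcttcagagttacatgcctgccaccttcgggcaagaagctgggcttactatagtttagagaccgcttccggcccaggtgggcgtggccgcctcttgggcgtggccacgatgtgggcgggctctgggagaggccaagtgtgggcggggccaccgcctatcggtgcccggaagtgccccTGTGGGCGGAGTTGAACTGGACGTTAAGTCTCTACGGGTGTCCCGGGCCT
Echdc1, first start: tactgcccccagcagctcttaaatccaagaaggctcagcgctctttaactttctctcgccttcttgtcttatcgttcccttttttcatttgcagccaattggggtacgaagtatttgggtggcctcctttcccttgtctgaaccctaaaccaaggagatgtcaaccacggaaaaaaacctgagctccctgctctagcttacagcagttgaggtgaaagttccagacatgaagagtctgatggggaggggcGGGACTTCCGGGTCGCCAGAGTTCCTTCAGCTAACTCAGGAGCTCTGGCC
Echdc1, second start: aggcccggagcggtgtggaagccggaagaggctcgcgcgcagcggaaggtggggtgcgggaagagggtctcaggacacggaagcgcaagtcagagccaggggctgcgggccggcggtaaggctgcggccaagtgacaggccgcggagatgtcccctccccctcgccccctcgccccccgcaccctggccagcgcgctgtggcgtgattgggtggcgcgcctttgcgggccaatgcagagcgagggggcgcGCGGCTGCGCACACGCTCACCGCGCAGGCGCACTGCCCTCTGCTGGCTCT
Echs1, the gene nearest to the threshold among those that missed it, is shown with capitals marking the letters AGGTCA, the half-site that nuclear receptors of the PPAR and ERR families are known to read (chr7:140116372-140116671, minus strand).
Echs1: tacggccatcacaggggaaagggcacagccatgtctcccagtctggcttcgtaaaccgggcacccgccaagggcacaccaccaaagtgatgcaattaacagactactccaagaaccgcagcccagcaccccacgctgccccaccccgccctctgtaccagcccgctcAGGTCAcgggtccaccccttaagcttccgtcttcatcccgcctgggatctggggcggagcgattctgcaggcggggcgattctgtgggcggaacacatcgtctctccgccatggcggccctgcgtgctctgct
Hadhb is shown because it and Hadha, which encode the subunits of 1 enzyme, start 273 bases apart, and the 228 capital letters are those its window shares with that of Hadha (chr5:30155003-30155302, plus strand).
Hadhb: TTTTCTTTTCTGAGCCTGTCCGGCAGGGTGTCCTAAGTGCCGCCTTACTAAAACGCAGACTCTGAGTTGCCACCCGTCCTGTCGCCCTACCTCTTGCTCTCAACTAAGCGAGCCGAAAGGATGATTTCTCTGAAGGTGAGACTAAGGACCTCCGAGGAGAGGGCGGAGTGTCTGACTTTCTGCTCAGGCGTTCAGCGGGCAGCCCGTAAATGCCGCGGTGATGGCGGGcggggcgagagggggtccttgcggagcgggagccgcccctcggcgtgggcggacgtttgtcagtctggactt

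The letters AGGTCA, searched on both strands, occurred in the windows of 6 of the 26 genes, which were Acadm, Acadvl, Cpt1a, Cpt1c, Echdc3 and Echs1. That is 23.1% of them, against 18.1% of all 27025 genes in the table. In Echs1 the first base of the match lay 83 bases before the start. Neither Cpt2 nor Echdc1 held the letters in these windows. The direct repeat AGGTCANAGGTCA was in 0 of the 26 genes' windows and in 0.0481% of all genes, and TCAAGGTCA, which contains the half-site, was in those of 0 of the 26 genes and in 0.466% of all genes. The windows of the set held a median of 17 CpG dinucleotides, against 8 over all genes, and a median GC content of 61%, against 53.3%. These matches describe letters in a short window and say nothing on binding.

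The deposited values are log2 expression levels. Across all 18193 genes, limma with Benjamini-Hochberg adjustment called 1461 changed at an adjusted p under 0.05, of which 535 were higher and 926 were lower in anti-FGFR1 mice. The array with the least skeletal muscle RNA was anti-FGFR1 replicate 5, where 18 muscle markers averaged 7.12, and in the control IgG group it was replicate 6 at 9.53. Brown fat markers were high on every array (mean of 12 markers 12.56 to 12.73 in anti-FGFR1 mice and 12.27 to 12.65 in control IgG mice). Endothelial markers averaged 9.47 ± 0.095 in anti-FGFR1 mice and 9.72 ± 0.088 in control IgG mice, and 7 of 11 fell. Smooth muscle and pericyte markers averaged 9.68 ± 0.087 in anti-FGFR1 mice and 9.997 ± 0.074 in control IgG mice, and 6 of 9 fell (SD, n = 6 each). Neither marker group overlapped between treatments (exact two-sided permutation test, p = 0.002165, the smallest this design allows, adjusted p = 0.0108 over 10 measures). T and B cell markers averaged 7.28 ± 0.072 in anti-FGFR1 mice and 7.15 ± 0.065 in control IgG mice (exact permutation p = 0.0087, adjusted p = 0.0289), and 1 of 9 rose. Of 12 macrophage markers all lay above 0 and 2 rose (Adgre1 by 0.63, Csf1r by 0.37), with means of 10.53 ± 0.16 in anti-FGFR1 mice and 10.29 ± 0.28 in control IgG mice. Of 8 fibroblast and preadipocyte markers 3 rose, among them Lum (0.76) and Pdgfra (0.62), and 2 fell, among them Pi16 (-0.50). The difference in the mean of these 8 did not pass either (0.17, exact permutation p = 0.134, adjusted p = 0.192). The ratio of 3' to 5' signal in control transcripts, a sign of RNA quality, was 0.20 ± 0.027 on the log2 scale after anti-FGFR1 and 0.16 ± 0.031 after control IgG (exact permutation p = 0.0368, adjusted p = 0.0736). The part of these shifts in the results below was not tested beyond the fits that are named.

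Of the 30 measured genes, 2 rose after anti-FGFR1, Cpt2 and Echdc1, and 0 fell by limma's adjusted p. That is 6.67% higher and 0% lower, beside 2.94% of all genes called higher, 5.09% called lower and 8.03% called in either direction. At an unadjusted p under 0.05 the count was 9 of 30, or 30%, beside 22.4% of all genes, and 1 of these 9, Slc22a5, was below 0. The fold changes were small. They ran from -0.26 (Bdh1) to 0.28 (Echdc1) on the log2 scale. Above 0 lay 22 of the 30 genes, beside 9721 of all 18193 genes. The median was 0.046 in the set, while the median of all genes was 0.0091. Regardless of sign, the median change was 0.061 in the set and 0.073 over all genes. The groups overlapped in each of the 30 genes, beside 1.57% of all genes higher and 3.55% lower without overlap.

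The genes of the set were measured with little spread. The SD among control IgG mice had a median of 0.053 over the 30 genes, against 0.12 over all genes, and the 95% interval of a fold change reached a median of 0.10 to either side. For 21 of the 30 genes the whole interval lay within 0.25 of 0. Of the 30 genes, 16 had a mean above 13 and 7 a mean above 14 in a table whose highest value is 14.86, and the files carry no mark for saturated probes. RNA of whole tissue was measured, so fewer cells of a type and less RNA per cell cannot be told apart.

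**Figure D1:**
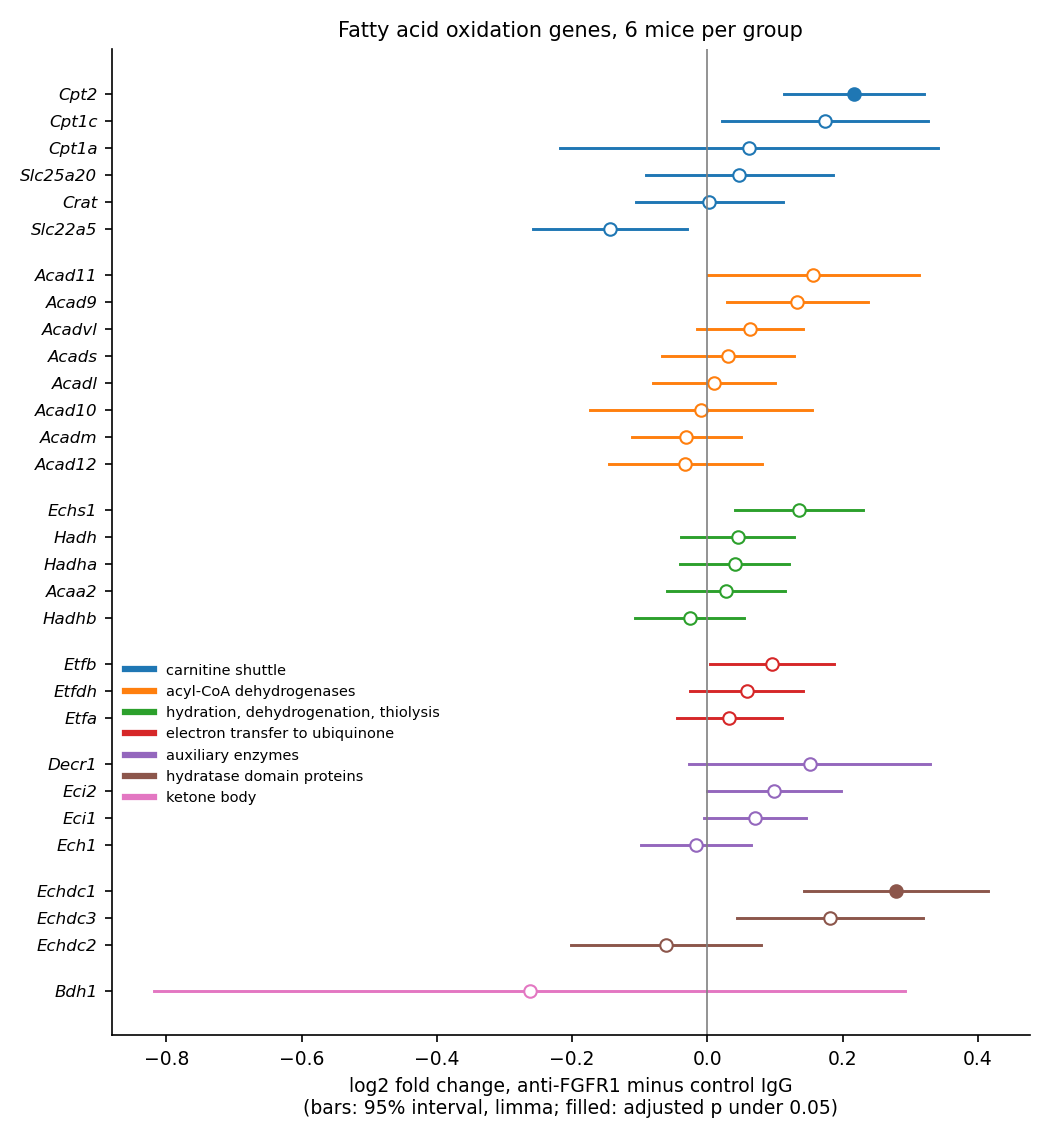
Log2 fold change (anti-FGFR1 minus control IgG, x axis) of the 30 measured genes, grouped and coloured by role, with the 95% interval from limma as a bar. Cpt2 and Echdc1 are filled because their adjusted p is under 0.05; most other genes sit within 0.2 of 0, and Bdh1 has by far the widest bar.

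The carnitine shuttle held 1 gene that rose, 0 that fell and 5 that did not pass, of 6 measured, with a median change of 0.054. Cpt2, the inner-membrane transferase that regenerates acyl-CoA in the matrix, stood at 13.46, 13.45, 13.49, 13.50, 13.50 and 13.33 in the anti-FGFR1 mice, against 13.14, 13.34, 13.26, 13.25, 13.29 and 13.14 in the control IgG mice. All but anti-FGFR1 replicate 6 lay above the highest control mouse. The mean was 13.45 ± 0.063 after anti-FGFR1 and 13.24 ± 0.082 after control IgG (SD, n = 6 each), a log2 fold change of 0.22 ± 0.048 (SE, 95% interval 0.11 to 0.32, limma adjusted p = 0.0127), or 16.2% higher. The call held when any single array was left out (adjusted p 0.0081 to 0.0325). It was lost when Cpt2 was read as the mean with its dimmer probe set (0.24, limma adjusted p = 0.159) and without the 2 arrays lowest in muscle markers (0.19, adjusted p = 0.0623), and with muscle markers as a covariate the value was 0.22 (adjusted p = 0.0217).

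Slc22a5, the carnitine transporter of the plasma membrane, was the one shuttle gene below 0. Its levels were 11.27, 11.19, 11.34, 11.28, 11.18 and 11.23 after anti-FGFR1, against 11.29, 11.36, 11.41, 11.51, 11.27 and 11.51 after control IgG. In 4 of 6 anti-FGFR1 mice it lay below all control mice, yet the difference of -0.14 ± 0.053 did not pass (limma adjusted p = 0.118). Its other probe set gave -0.16. Cpt1a, the outer-membrane transferase of liver and many other tissues, was spread widely in both groups, from 10.31 to 10.87 after anti-FGFR1 and from 10.10 to 10.99 after control IgG. Its change of 0.061 ± 0.13 did not pass (95% interval -0.22 to 0.34), and its dimmer probe sets gave 0.26 and 0.39 and did not pass either. The sign of the Cpt1a value turned when control IgG replicate 1, its lowest array, was left out (-0.033). Cpt1c, a form known mainly from the brain, differed by 0.17 ± 0.071 (limma adjusted p = 0.158).

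The carrier Slc25a20, which exchanges acylcarnitine for carnitine across the inner membrane, differed by 0.048 ± 0.064. Crat, which makes acetylcarnitine, differed by 0.0032 ± 0.051, with 95% limits of -0.11 and 0.11. The probe set shared by Gm44502, Cpt1b and Chkb ran from 13.36 to 13.58 after anti-FGFR1 and from 13.53 to 13.62 after control IgG. Its change of -0.10 ± 0.048 did not pass (limma adjusted p = 0.230), and no level of Cpt1b, the outer-membrane form of muscle and brown fat, can be read from it.

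**Figure D2:**
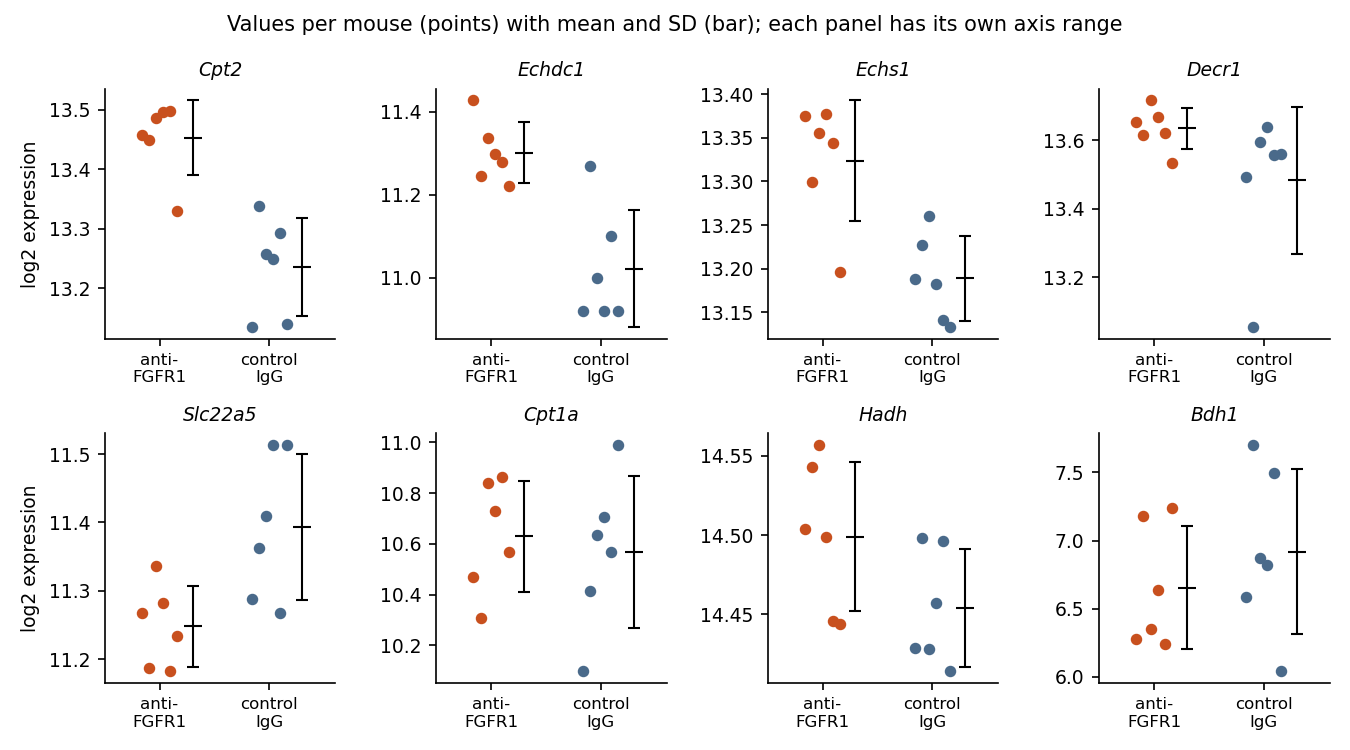
Log2 expression (y axis, each panel with its own range) of 8 genes in the 6 anti-FGFR1 mice (left) and the 6 control IgG mice (right); points are mice and bars are mean and SD. In Cpt2 a single anti-FGFR1 mouse reaches down into the control range, in Decr1 a single control mouse lies far below the rest, and Bdh1 and Cpt1a are spread widely in both groups.

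The acyl-CoA dehydrogenases take the first step of each turn and differ in the chain length they accept. Of 8 measured, 0 rose, 0 fell and 8 did not pass, with a median change of 0.020. The chain-length series was measured most tightly of these 8. Acadvl, for very long chains, stood between 14.11 and 14.22 after anti-FGFR1 and between 14.09 and 14.13 after control IgG, so that 5 of 6 treated mice lay above all controls. Its change was nevertheless 0.063 ± 0.036 (limma adjusted p = 0.330). The other genes of the series lay closer to 0: Acadl, for long chains, at 0.0095 ± 0.042, Acadm, for medium chains, at -0.031 ± 0.038, and Acads, for short chains, at 0.031 ± 0.046. For these 4 genes the 95% limits lay between -0.11 and 0.14.

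Acad9, which is also needed to assemble respiratory complex I, had the smallest p of the dehydrogenases. It stood at 10.41, 10.38, 10.38, 10.48, 10.46 and 10.38 after anti-FGFR1, against 10.12, 10.31, 10.32, 10.29, 10.40 and 10.26 after control IgG. The groups overlapped through control IgG replicate 5. The change of 0.13 ± 0.049 did not pass (limma adjusted p = 0.118), but it passed after a second quantile normalization (0.16, adjusted p = 0.0270), in a fit that took the 3' to 5' ratio into account (0.22, adjusted p = 0.0409) and as the mean of its probe sets (0.20, adjusted p = 0.0202). Acad11 differed by 0.16 ± 0.073 (limma adjusted p = 0.222), and 4 of 6 treated mice lay above all controls. The chromosome 5 neighbours Acad10 and Acad12 differed by -0.0096 ± 0.077 and -0.033 ± 0.053. A dimmer Acad10 probe set gave -0.14 ± 0.0515, with 3 of 6 treated mice below all controls. It did not pass either (limma adjusted p = 0.124 over all probe sets).

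The enzymes of hydration, dehydrogenation and thiolysis gave 0 rises, 0 falls and 5 genes that did not pass, of 5 measured. Echs1, the hydratase for short chains, which also serves the breakdown of valine, had the third smallest p of the set after Cpt2 and Echdc1. It stood at 13.38, 13.30, 13.36, 13.38, 13.34 and 13.20 after anti-FGFR1, against 13.19, 13.23, 13.26, 13.18, 13.14 and 13.13 after control IgG. As with Cpt2, only anti-FGFR1 replicate 6 lay within the control range. The change of 0.14 ± 0.044 (95% interval 0.041 to 0.23) missed the threshold (limma adjusted p = 0.0773), and passed it without that replicate (0.16, adjusted p = 0.0342) or when dim genes were left out of the adjustment (adjusted p = 0.0309).

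Hadha and Hadhb encode the subunits of the trifunctional protein, which carries out the later steps on long chains. They differed by 0.041 ± 0.038 and -0.026 ± 0.038. Hadha lay between 13.69 and 13.75 after anti-FGFR1 and between 13.61 and 13.73 after control IgG, and Hadhb between 14.21 and 14.32 after anti-FGFR1 and between 14.25 and 14.36 after control IgG. Hadh, the dehydrogenase for shorter 3-hydroxyacyl-CoAs, differed by 0.045 ± 0.039, with 3 probe sets all above 0. Acaa2, the thiolase, differed by 0.027 ± 0.041 and its probe sets did not share a sign.

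The electron transfer genes all lay above 0 at their brightest probe sets and did not pass. Etfb, which encodes the beta subunit of the flavoprotein, stood at 13.73, 13.69, 13.70, 13.68, 13.74 and 13.57 after anti-FGFR1, against 13.65, 13.57, 13.57, 13.65, 13.52 and 13.58 after control IgG. Here too anti-FGFR1 replicate 6 was the one treated mouse inside the control range. The change was 0.095 ± 0.043 (limma adjusted p = 0.205). The alpha subunit Etfa differed by 0.033 ± 0.036. Etfdh, the enzyme of the inner membrane that passes the electrons to ubiquinone, differed by 0.059 ± 0.039 at its brightest probe set, and as the mean of its probe sets it was called lower (-0.27, limma adjusted p = 0.0211).

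The auxiliary enzymes prepare double bonds of unsaturated fatty acids for the pathway, and of 4 measured 0 passed, with a median change of 0.085. Decr1, the 2,4-dienoyl-CoA reductase, stood at 13.65, 13.62, 13.72, 13.67, 13.62 and 13.53 after anti-FGFR1, against 13.49, 13.06, 13.60, 13.64, 13.56 and 13.56 after control IgG. Control IgG replicate 2 lay far below the other mice of its group. The change of 0.15 ± 0.083 did not pass (limma adjusted p = 0.303) and was 0.066 without that mouse. The isomerases Eci1 and Eci2 differed by 0.071 ± 0.036 and 0.098 ± 0.046, and 5 of 6 and 4 of 6 treated mice lay above all controls. Ech1, the dienoyl-CoA isomerase, differed by -0.017 ± 0.038.

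Echdc1, Echdc2 and Echdc3 share a hydratase domain, and 1 of them rose, 0 fell and 2 did not pass. Echdc1 is known as ethylmalonyl-CoA decarboxylase, which destroys a faulty product of acetyl-CoA carboxylase, and is not a step of beta-oxidation. Its levels were 11.43, 11.24, 11.34, 11.30, 11.28 and 11.22 after anti-FGFR1, against 10.92, 11.27, 10.999, 10.92, 11.10 and 10.92 after control IgG. The groups overlapped through control IgG replicate 2, and 4 of 6 treated mice lay above all controls. The mean was 11.30 ± 0.074 after anti-FGFR1 and 11.02 ± 0.14 after control IgG (SD, n = 6 each), a change of 0.28 ± 0.064 (SE, 95% interval 0.14 to 0.42, limma adjusted p = 0.0140), or 21.4% higher. Leaving out any 1 array kept the call (adjusted p 0.0023 to 0.0355). It ended when the fit took the 3' to 5' ratio into account (0.29, limma adjusted p = 0.0803) and without the 2 arrays lowest in muscle markers (0.26, adjusted p = 0.0513).

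Echdc3 stood at 10.60, 10.59, 10.44, 10.47, 10.46 and 10.46 after anti-FGFR1, against 10.45, 10.45, 10.29, 10.13, 10.43 and 10.16 after control IgG. In 5 of 6 treated mice it lay above all controls, and the change of 0.18 ± 0.064 did not pass (limma adjusted p = 0.104). Echdc2 differed by -0.061 ± 0.066.

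Bdh1, the 3-hydroxybutyrate dehydrogenase that interconverts the main ketone bodies, was the most variable gene of the set. It stood at 6.28, 7.18, 6.35, 6.64, 6.24 and 7.24 after anti-FGFR1, against 6.58, 7.70, 6.87, 6.82, 7.49 and 6.04 after control IgG. The groups overlapped over most of their range. The change of -0.26 ± 0.26 had 95% limits of -0.82 and 0.29 (limma adjusted p = 0.601), which lie on both sides of 0, and ran from -0.44 (without control IgG replicate 6) to -0.11 (without control IgG replicate 2) with single arrays left out. It was -0.098 when the 3' to 5' ratio was taken into account and -0.095 with the muscle mean as a covariate. Its highest control arrays, replicates 2 and 5, also had the highest muscle marker means of that group (11.58 and 11.64). Control IgG replicate 6 was lowest in both (muscle mean 9.53). After anti-FGFR1, replicates 6 and 2 were highest in both (muscle means 11.26 and 11.49) and replicate 5 was lowest in both (7.12). The part of muscle RNA in the Bdh1 values was not tested further.

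Further probe sets were available for 15 of the 30 genes, 21 in all. In 11 of the 15 genes all probe sets shared a sign, and in Acaa2, Crat, Etfdh and Hadhb they did not. When all 34945 probe sets were tested together, 6.9% were called, 2.15% higher and 4.75% lower, and of the 21 further ones 3 rose and 1 fell. A second Acad9 probe set ran from 9.43 to 9.78 after anti-FGFR1 and from 9.05 to 9.35 after control IgG, without overlap, a change of 0.36 ± 0.069 (limma adjusted p = 0.0057). A second Decr1 probe set changed by 0.43 ± 0.11 (adjusted p = 0.0235), with 5 of 6 treated mice above all controls and control IgG replicate 2 again lowest, at 10.83.

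For Acadl and Etfdh the brightest probe set and a dim one differed in call. The dim Acadl probe set ran from 7.09 to 7.35 after anti-FGFR1 and from 6.81 to 7.09 after control IgG, a change of 0.26 ± 0.062 (limma adjusted p = 0.0216), where the brightest gave 0.0095. The dim Etfdh probe set ran from 5.86 to 6.26 after anti-FGFR1 and from 6.32 to 7.06 after control IgG, a change of -0.60 ± 0.11 (adjusted p = 0.0041), where the brightest gave 0.059. Of the 21 further probe sets 3 had groups that did not overlap, beside 1.23% of all probe sets higher and 3.33% lower. When the 3' to 5' ratio was taken into account, in fits added after these values had been seen, the calls of all 4 were lost (limma adjusted p 0.0609 to 0.186). The Acadl call was also lost without anti-FGFR1 replicate 1 or 3 or control IgG replicate 3, and the Decr1 call without anti-FGFR1 replicate 3, 4 or 5 or without the 2 arrays lowest in muscle markers, while those of Acad9 and Etfdh were not lost with any 1 array left out. Where the probes of each set lie in the transcript is not given in the files used here.

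**Figure D3:**
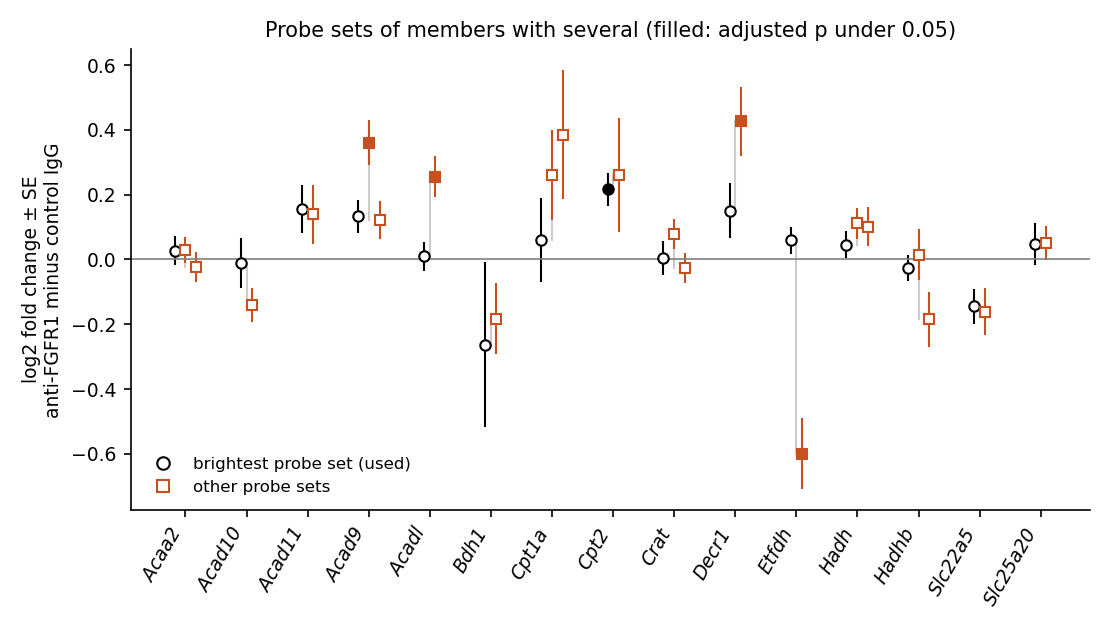
Log2 fold change ± SE (y axis, anti-FGFR1 minus control IgG) of every probe set of the 15 genes with more than 1. Circles are the brightest probe sets, squares the others, and filled symbols have an adjusted p under 0.05; in Etfdh the square lies at -0.60 and the circle at 0.059, and in Decr1 and Acad9 the filled square lies above the circle.

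Across arrays, the mean of the 30 genes was 12.08 ± 0.028 in anti-FGFR1 mice (12.04 to 12.12) and 12.03 ± 0.041 in control IgG mice (11.98 to 12.08), SD, n = 6 each. Anti-FGFR1 replicate 6 was the lowest treated mouse in 20 of the 30 genes, and replicate 3 the highest in 9. Among control IgG mice, replicate 1 was lowest in 11 genes and replicate 6 in 9, while replicate 2 was highest in 14. The values of a mouse thus lay on the same side for many genes at once, so the 30 genes are not independent readings of the treatment. Anti-FGFR1 replicate 6 also had the lowest mean of brown fat markers in its group, 12.56, and control IgG replicate 1 the lowest in its own, 12.27. Brown fat markers averaged 12.64 ± 0.063 after anti-FGFR1 and 12.51 ± 0.13 after control IgG (exact permutation p = 0.0238, adjusted p = 0.0595), and 2 of the 12 rose. Their part in the values of the set was not tested.

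**Figure D4:**
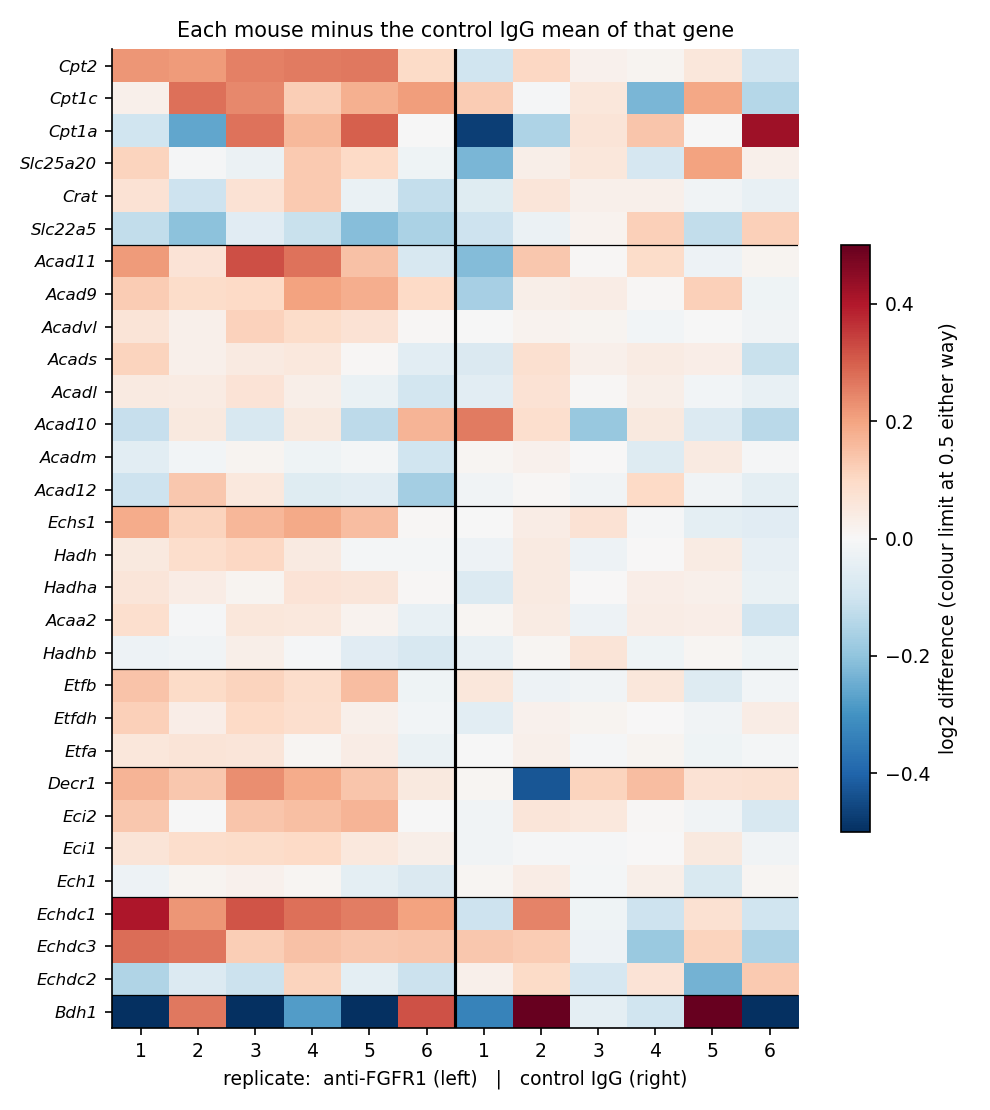
Each cell is the log2 level of a gene (rows, in the order of their roles) in a mouse (columns, anti-FGFR1 replicates left, control IgG replicates right) minus the control IgG mean of that gene, with colours limited at 0.5 to either side. The first 5 anti-FGFR1 columns are mostly red, the column of replicate 6 is paler or blue in most rows, and the row of Bdh1 mixes strong reds and blues in both groups.

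The genes around the pathway were read from lists of neighbouring functions. Each count of calls in these lists stands beside 2.94% of all genes called higher and 5.09% called lower. Of 15 markers of the respiratory chain and TCA cycle, 1 rose (Uqcrc2, a subunit of complex III, 0.18 ± 0.051, limma adjusted p = 0.0487) and 0 fell, with a median of 0.023. Leaving out single arrays ended the Uqcrc2 call in 11 of 12 cases. Ucp1 differed by 0.027 ± 0.039. Its means were 14.55 after anti-FGFR1 and 14.52 after control IgG, near the highest value on the arrays (14.86), and saturation was not tested. Of 7 genes of ketone body synthesis and use, 0 passed, and Oxct1, which activates acetoacetate for oxidation, differed by 0.15 ± 0.050 (adjusted p = 0.0807). Of 7 genes that set the malonyl-CoA brake on Cpt1, 0 passed, with Acacb, the mitochondrial acetyl-CoA carboxylase, at -0.055 ± 0.063 and Prkaa1, a catalytic subunit of AMP-activated kinase, at 0.25 ± 0.082 (adjusted p = 0.0782).

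Peroxisomes shorten very long chains before mitochondria take them over, and of 11 genes of that route 3 rose and 1 fell. Abcd2, which imports very-long-chain acyl-CoA, rose by 0.41 ± 0.10, Acox2, the oxidase for branched chains and bile acid precursors, by 0.32 ± 0.083, and Pecr, a trans-2-enoyl-CoA reductase of peroxisomes, by 0.21 ± 0.055 (limma adjusted p = 0.0219, 0.0302 and 0.0277). Acaa1b, a peroxisomal thiolase, fell by 0.55 on the log2 scale (SE 0.086, adjusted p = 0.0013). With single arrays left out, the call of Acaa1b was never lost, while that of Acox2 was lost in 10 of 12 cases, of Pecr in 6 and of Abcd2 in 2.

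The oxidation of propionate and of branched and odd chains had 4 of 10 genes that rose and 0 that fell, with a median of 0.13. Mcee and Mmut, which turn methylmalonyl-CoA into succinyl-CoA, rose by 0.38 ± 0.065 and 0.22 ± 0.055, Pcca, a subunit of propionyl-CoA carboxylase, by 0.25 ± 0.058, and Hibch, an enzyme of valine breakdown, by 0.32 ± 0.057 (limma adjusted p = 0.0027, 0.0274, 0.0144 and 0.0036). The Mmut call was lost in 6 of 12 fits with 1 array left out, and the other 3 calls in 0. Pccb, the other subunit of propionyl-CoA carboxylase, was added after these values had been seen. It differed by -0.0034 ± 0.048 (limma adjusted p = 0.979).

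Of 13 transcriptional regulators, 2 rose and 0 fell. They were the coactivators Ppargc1b (0.26 ± 0.073, limma adjusted p = 0.0448) and Med1 (0.19 ± 0.055, adjusted p = 0.0481), whose calls were lost in 9 and 10 of 12 fits with 1 array left out, and by centring each array on its median (adjusted p = 0.0520 and 0.0566). Ppargc1a, the coactivator induced by cold, differed by 0.26 ± 0.094 and did not pass (adjusted p = 0.115), and Ppara, the nuclear receptor for which many genes of the pathway are known targets, differed by -0.018 ± 0.083. Of 9 other known PPAR targets, 0 rose and 3 fell. Angptl4, an inhibitor of lipoprotein lipase, stood at 11.79 ± 0.075 after anti-FGFR1 and 12.26 ± 0.11 after control IgG (SD, n = 6 each), a change of -0.47 ± 0.057 (limma adjusted p = 2.1e-04). Ucp3, a mitochondrial carrier, changed by -0.46 ± 0.099, and Fabp3, a fatty acid binding protein, by -0.21 ± 0.052 (adjusted p = 0.0099 and 0.0212). Pdk4, which restrains pyruvate oxidation, differed by -0.030 ± 0.045. The muscle markers Acta1 and Ckm, whose tissue also expresses Ucp3 and Fabp3, differed by -0.71 ± 0.79 and -0.75 ± 0.63, and 0 of 18 muscle markers passed, all 18 being below 0. With single arrays left out the Ckm value ran from -0.999 to -0.098 and that of Acta1 from -0.98 to 0.18, both highest without anti-FGFR1 replicate 5.

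Across the neighbouring lists, 14 genes were called. When the 3' to 5' ratio was taken into account 11 of the 14 calls were lost, and Acaa1b, Angptl4 and Mcee kept theirs. The ratio was itself higher on average after anti-FGFR1 (0.20 against 0.16). In each fit that used it, the ratio and the treatment therefore cannot be fully told apart. Without the 2 arrays lowest in muscle markers 8 of the 14 were lost, among them Abcd2, Pecr, Acox2, Mmut and Fabp3, and Ucp3 was not. With the muscle mean as a covariate 3 of the 14 were lost, those of Ppargc1b, Med1 and Uqcrc2, and Ucp3 and Fabp3 kept theirs. Of the 1461 genes called among all genes, 618 were also called with the ratio. Without the 2 arrays 938 of the 1461 were called again, and with the muscle mean 1232. As means of all probe sets, Pecr (0.12), Med1 (0.057), Fabp3 (-0.13) and Uqcrc2 (0.13) did not pass, while Oxct1 (0.20, limma adjusted p = 0.0440) and Ppargc1a (0.37, adjusted p = 0.0204) did.

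**Figure D5:**
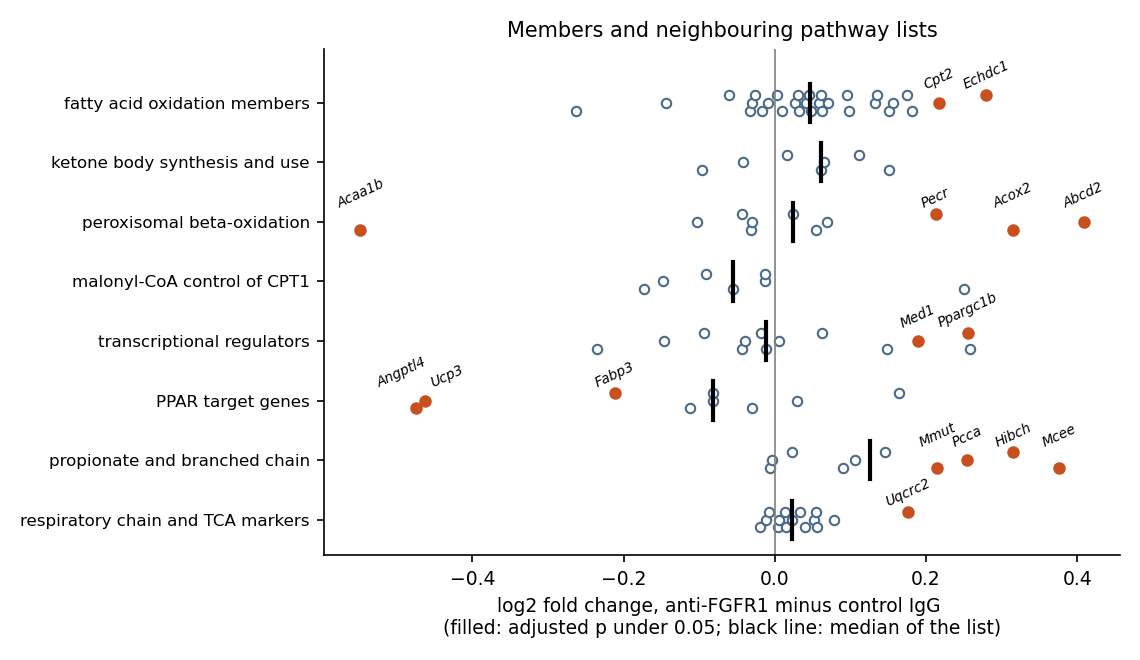
Log2 fold changes (x axis, anti-FGFR1 minus control IgG) of the 30 genes (top row) and of 7 neighbouring lists, with filled points for an adjusted p under 0.05 and a black line at each list's median. The 30 genes crowd near 0 with Cpt2 and Echdc1 filled on the right, the propionate and branched chain list has 4 filled points on the right, and the PPAR targets have 3 on the left.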

How the data were processed

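Brown adipose tissue RNA of 12 mice was hybridised to one-colour Affymetrix arrays, 1 per mouse. The authors deposited log2 expression values for 45101 probe sets, made with RMA and analysed with limma, per the submitters' processing notes, with no version or genome build named; RMA corrects background, normalizes arrays together and summarises probes, which can pull dim changes toward 0. The values (3.16 to 14.86, array medians 7.19 to 7.23) were used as deposited. Precision is limited by the number of arrays.

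The platform annotation names 35890 probe sets; 932 with several genes, 9211 unnamed and 64 control probe sets were left out, and symbols were updated by Entrez ID through the GRCm38.p6 gene list of RefSeq. The brightest probe set per gene gave 18193 genes. Groups were compared with limma 3.58.1 (lmFit, eBayes, two-sided, no covariate) in R 4.3.3 with data.table in version 1.17.8, and Benjamini-Hochberg adjustment over all genes or all probe sets; genes at an adjusted p under 0.05 were called. Means per array were compared by exact permutation. On simulated data with 18193 genes, this comparison recovered 43% of changes of 0.25 and 89% of changes of 0.5, with 6.38% false calls. Far fewer genes were changed there than the 1461 called in the data, and the adjusted p depends on that share. The recovery thus need not hold for the data.

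The genes of the set, the lists and the tests were chosen with earlier results of these data known. Named were all measured genes of the set, their further probe sets as values, of each neighbouring list up to 5 called genes (or the one of smallest p), and Ucp1, Ppargc1a, Ppara, Pdk4, Oxct1, Acacb, Acta1 and Ckm; some genes of the rule are not reported here. Alternatives were a second quantile normalization, median centring, the mean of probe sets, a filter on dim genes, replicate number as a block, the 3' to 5' ratio or the muscle mean as a covariate, and leaving out arrays. No 2 arrays of a group were duplicates (correlation 0.991 to 0.997, at most 0.0665% identical values).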

Additional observations from a re-analysis of the deposited data

Results flagged for a closer look

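Each gene of the set and each array measure was checked within each group, which gave 82 groups of 6 values. In 7 of the 82 (8.54%), a single mouse lay far from the others by Dixon's criterion. Chance gives this in about 1 of 20 independent groups. The 82 come from the same 12 mice and are not independent, so the shares cannot be compared. Among genes of the set the flagged values were Cpt2 in anti-FGFR1 replicate 6 (13.33, next 13.45), Decr1 in control IgG replicate 2 (13.06, next 13.49), Acad12 in control IgG replicate 4 (8.46, next 8.37) and Eci1 in control IgG replicate 5 (13.12, next 13.08). Among measures of whole arrays they were the muscle marker mean of anti-FGFR1 replicate 5 (7.12, next 10.34), the brown fat marker mean of control IgG replicate 1 (12.27, next 12.52) and the 3' to 5' ratio of control IgG replicate 1 (0.22, next 0.16). The Cpt2 and Decr1 mice each pull the difference between groups: without them it was 0.24 for Cpt2 and 0.066 for Decr1.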

How the results depend on the processing

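In the simulated data, where the changed genes were drawn from all genes, 43% of changes of 0.25 were recovered. Far fewer genes were changed there than were called in the data, and that share sets how strict the adjustment is. The genes of the set had less spread (median SE 0.047, against 0.063 over all genes), and recovery at their spread was not simulated. The mean of all probe sets gave 1 gene of the set called lower, Etfdh (-0.27, reversed in sign from 0.059), and ended the Cpt2 call (0.24, limma adjusted p = 0.159). Without the 2 arrays lowest in muscle markers 0 genes of the set were called higher. In that setting 1016 of all genes were called, of which 938 were among the 1461. Taking the 3' to 5' ratio into account, 688 genes were called, of which 618 were among the 1461, and a second quantile normalization gave 732 higher and 760 lower (50.9% lower, against 63.4% as deposited). Some signs turned. With the muscle mean as a covariate these were those of Cpt1a (-0.0036), Acad10 (0.017), Ppara (0.0012) and Acta1 (0.0078, itself 1 of the 18 genes of that mean), with a second quantile normalization that of Acad10 (0.027), and with the 3' to 5' ratio that of Pdk4 (0.033). Leaving out single arrays, values ranged from -0.033 to 0.15 for Cpt1a, -0.022 to 0.027 for Crat, -0.0021 to 0.030 for Acadl, -0.048 to 0.042 for Acad10, -0.060 to 0.047 for Ppara and -0.98 to 0.18 for Acta1. In the same way the difference in the 3' to 5' ratio ranged from 0.036 to 0.054 (0.039 after a second normalization, exact permutation p = 0.0758), that in muscle markers from -0.82 to 0.060 (positive without anti-FGFR1 replicate 5), and that in brown fat markers from 0.086 to 0.16. The causes were not tested. The median change of the set ranged from 0.036 to 0.059 over all alternatives.

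No source says that the replicate numbers pair the arrays, and they were not taken to do so: deviations of same-numbered arrays correlated above 0.1 in 3 of 6 pairs, and 5 of 12 arrays correlated best with their own number. With the replicate block 1337 genes were called (535 higher, 802 lower), and Cpt2 and Echdc1 were among them (adjusted p = 0.0192 and 0.0367), while Pecr and Uqcrc2 were not (adjusted p = 0.0501 and 0.0523).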
